A study of Ovis aries with 13 samples.

Results

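BCKDHA and GLUD1, 2 genes of amino acid breakdown, were followed on arrays of the left ventricle of sheep before and just after birth. They are 2 of the 854 genes that could be named on the array. They were found by the gene name or the RefSeq record that the array files give for each probe, which gave 3 of the 15008 probes, 1 for BCKDHA and 2 for GLUD1. Both genes were selected on their measured levels in fetuses against newborns, with earlier results of that comparison known, so it is described here without a test.

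The fetal group held 6 animals at gestational day 142, and the newborn group held 7 lambs labelled day 1 and, per the labels' protocols, taken on the day of birth. Each animal had 1 Agilent array of frozen left ventricle, and the labels name no breed, treatment or genotype for either group. The series was planned with 7 fetuses and with the right ventricle and septum as well, and those samples were not analysed here. Gestational age and being born differ together between the groups and cannot be told apart. By sex, 2 of the fetuses and 4 of the newborns were female. In both groups some animals carry the same number with different letters (9 animals, 4 numbers), and the labels do not explain this. Slide 1 carried 4 fetuses and 3 newborns, and slide 2 carried 2 fetuses and 4 newborns.

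Leucine, isoleucine and valine, the branched-chain amino acids, first lose their amino group to glutamate through the transaminases BCAT1 and BCAT2. The branched-chain alpha-keto acid dehydrogenase complex of the mitochondrion then carries out the irreversible step that commits them to oxidation, and BCKDHA is the alpha subunit of its decarboxylase component. GLUD1 is the mitochondrial glutamate dehydrogenase, which turns glutamate into alpha-ketoglutarate and ammonia and so links amino groups to the citrate cycle. The heart can oxidise branched-chain keto acids beside its main fuels, fatty acids, lactate and glucose.

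What the array measures is the binding of labelled RNA to short oligonucleotides, so the probes are shown before their values, each 60 bases long. Capitals mark the 59 bases that GLUD1 probe 1 and GLUD1 probe 2 share. GLUD1 probe 3 was not found by the rule above. The files name it only by a locus number, which is the gene ID of GLUD1 in the RefSeq gene table, and it is given beside the others as a further probe of the gene.
BCKDHA probe 1: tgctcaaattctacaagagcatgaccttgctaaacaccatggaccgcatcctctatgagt
GLUD1 probe 1: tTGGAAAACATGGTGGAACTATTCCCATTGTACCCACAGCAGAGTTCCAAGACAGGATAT
GLUD1 probe 2: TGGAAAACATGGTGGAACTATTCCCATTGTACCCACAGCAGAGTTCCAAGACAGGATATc
GLUD1 probe 3: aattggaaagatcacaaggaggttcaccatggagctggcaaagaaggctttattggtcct

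GLUD1 probe 1 and GLUD1 probe 2 start 1 base apart on the same record (bases 112 and 113), so they read the same stretch of transcript from separate spots and are not independent measures of the gene. BCKDHA probe 1 lies at bases 310 to 369 of its record, and its longest run shared with a GLUD1 probe was 9 bases. GLUD1 probe 3 comes from another record (bases 612 to 671) and likewise shared at most 9 bases in a row with the others. The GC content was 45.0% for BCKDHA probe 1, GLUD1 probe 2 and GLUD1 probe 3, and 43.3% for GLUD1 probe 1. The files give no genome position for these probes. Each had 1 spot per array, which was well above background on all 13 arrays, never saturated and never marked as an outlier.

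The level used throughout is the log2 of a spot's processed signal minus the 75th percentile of its array, so 0 is the level below which 75% of the spots of that array lie. That percentile was a processed signal of 219 to 367, or 8.77 to 13.6 times the median background. On principal component 1 of the tested probes, which held 36.8% of the variance, the fetal arrays lay between -29.1 and -20.4 and newborn 6 at -9.00, apart from the other newborn arrays (10.08 to 35.1). Of the 22 heart muscle genes listed to check the tissue label, only MB, the oxygen-binding protein myoglobin, had a named probe. Its brightest probe lay between 8.74 and 9.20 in fetal and between 8.02 and 9.12 in newborn arrays, far above the 75th percentile on every array. A single gene is a limited check and cannot by itself settle the tissue.

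BCKDHA was lower in the newborn than in the fetal left ventricle. In the 6 fetal arrays its level was lowest at -0.90 (fetal 1), had a median of -0.57 and was highest at -0.22 (fetal 3). In the 7 newborn arrays it was lowest at -1.67 (newborn 4), had a median of -1.45 and was highest at -1.004 (newborn 6). The highest newborn array thus lay below the lowest fetal array, and the groups did not overlap. Over the whole array, all newborn arrays lay below all fetal arrays for 360 of 10255 tested probes, or 3.51%. Because BCKDHA was chosen for this contrast, nothing is read from its place among them.

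The mean level of BCKDHA was -0.57 ± 0.25 (SD, n = 6) in fetuses and -1.34 ± 0.28 (SD, n = 7) in newborns. The difference, newborn minus fetal, was -0.78 on the log2 scale with an SE of 0.146 from the limma fit, which is a signal 1.71-fold lower in newborns. It was 2.90 times the pooled SD of 0.268 within groups, with the newborns lower. For scale, 6.68% of the tested probes had a difference larger in size in either direction. Adjusted p-values of the same fit were under 0.05 for 23.1% of the tested probes (2366 of 10255), with 1227 (12%) higher and 1139 (11.1%) lower in newborns.

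The sizes by slide and by sex are given as a description, since groups that do not overlap leave the direction no room to change in any subset. Newborn minus fetal was -0.76 on slide 1 (4 fetal, 3 newborn arrays) and -0.79 on slide 2 (2 fetal, 4 newborn arrays). It was -0.75 in females (2 fetal, 4 newborn) and -0.78 in males (4 fetal, 3 newborn). Leaving out 1 array at a time gave values between -0.84 (without fetal 1) and -0.71 (without fetal 3), and leaving out newborn 6, the array that stood apart, gave -0.83. With the authors' deposited series matrix in place of the scanner signals the difference was -0.44, smaller by more than 1.5 times. The spots were dimmer in newborns, where the mean signal was 3.67 to 6.81 times the local background against 5.83 to 14.6 times in fetuses.

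Among newborns BCKDHA formed a wide range with no single array apart. Newborn 6, newborn 1 and newborn 5 had levels of -1.004, -1.01 and -1.16. The other newborn arrays lay between -1.67 and -1.45, so a gap separated the upper from the lower animals. Newborn 6 and newborn 1 were also the newborn arrays closest to the fetal ones on the first principal component, and the part of that in the spread of BCKDHA was not tested. Animals that share a number differed in BCKDHA by 0.14 and 0.16 in the fetal sets (fetal 1 with fetal 6, fetal 3 with fetal 5). In the newborn sets they differed by 0.60 (newborn 1 with newborn 7) and 0.51 (newborn 2, newborn 4 and newborn 5).

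**Figure D1:**
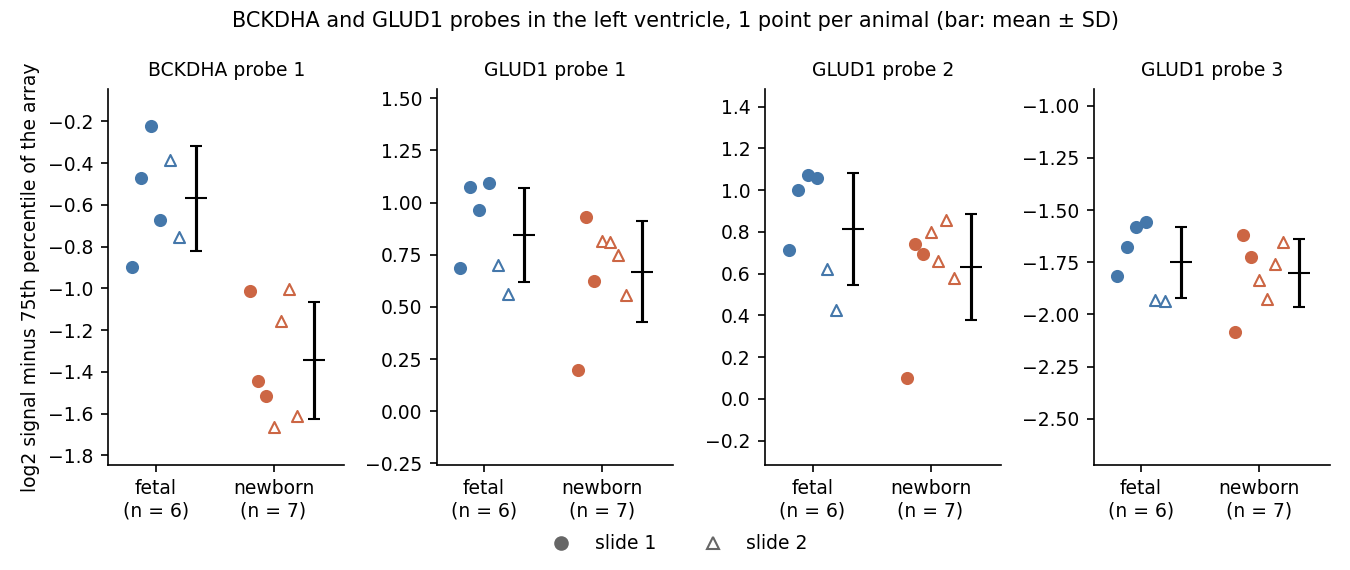
Level of each probe (log2 of the processed signal minus the array's 75th percentile, vertical axis) in the fetal (n = 6) and newborn (n = 7) left ventricle, 1 point per animal, filled circles for slide 1 and open triangles for slide 2, bars for the mean and SD. All newborn points of BCKDHA probe 1 (-1.67 to -1.004) lie below its fetal points (-0.90 to -0.22), while the groups overlap for each of the GLUD1 probes.

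GLUD1 overlapped between fetuses and newborns on every probe, and its newborn minus fetal differences were smaller than the spread within groups. On GLUD1 probe 1, the brightest of the gene, fetal levels ran from 0.56 (fetal 6) through a median of 0.83 to 1.09 (fetal 4). Newborn levels ran from 0.20 (newborn 1) through a median of 0.75 to 0.93 (newborn 2). Of the fetal arrays 3 lay above every newborn array, and of the newborn arrays 2 lay below every fetal array. Those 2, newborn 1 and newborn 7 (0.20 and 0.56), share an animal number. The 3 highest newborn arrays, newborn 2, newborn 4 and newborn 5 (0.81 to 0.93), share another, so the newborn levels may not be independent. The means were 0.85 ± 0.23 (SD, n = 6) and 0.67 ± 0.24 (SD, n = 7), a difference of -0.18 (SE 0.132), or 1.13-fold lower in newborns.

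GLUD1 probe 2, which reads the same stretch, ran from 0.43 to 1.07 in fetuses with a median of 0.86, and from 0.10 to 0.86 in newborns with a median of 0.70. Its newborn minus fetal difference was -0.18 (SE 0.142), the same as that of its near-twin to 2 decimals. GLUD1 probe 3 ran from -1.94 to -1.56 in fetuses with a median of -1.75, and from -2.08 to -1.62 in newborns with a median of -1.76. Its difference was -0.05 (SE 0.104). On this probe the newborn sets that share an animal number overlapped. Newborn 1 and newborn 7 lay at -2.08 and -1.66, and newborn 2, newborn 4 and newborn 5 between -1.93 and -1.62. All 3 differences were less than 1 pooled SD within groups (0.236, 0.260 and 0.166 for the 3 probes in order). Newborn 1 was the lowest newborn array on each of them, and without it the differences were -0.10, -0.09 and -0.002, smaller by more than 1.5 times.

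Since GLUD1 probe 1 and GLUD1 probe 2 are near-copies on separate spots, they show how well a spot repeats on an array. The level of GLUD1 probe 2 minus that of GLUD1 probe 1 varied over the 13 arrays with an SD of 0.0979, between -0.19 and 0.11. The SD between animals within groups was 0.236 and 0.260 for those probes, so most of the spread of GLUD1 lay between arrays rather than between spots. Deviations from the group means followed each other across the 13 arrays with r = 0.92 for GLUD1 probe 1 and GLUD1 probe 2. They did so with r = 0.74 for GLUD1 probe 1 and GLUD1 probe 3, which share no more than 9 bases in a row. These correlations are descriptions over arrays that the probes share, and each array has a single scaling value for all its probes.

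**Figure D2:**
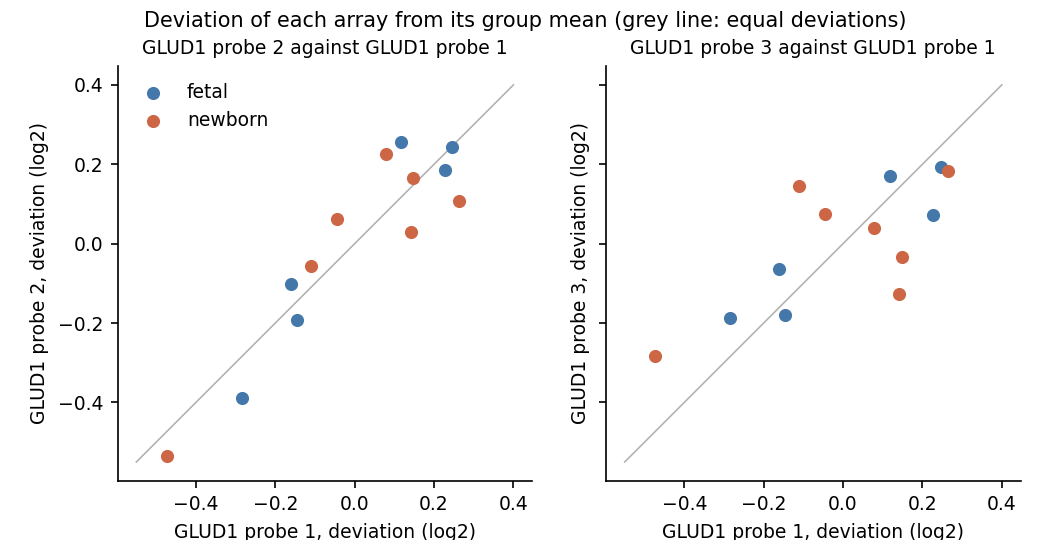
Deviation of each array from the mean of its group (log2) for GLUD1 probe 2 (left) and GLUD1 probe 3 (right) against GLUD1 probe 1, with 6 fetal and 7 newborn arrays and a grey line of equal deviations. The near-identical probes lie close to the line (r = 0.92), probe 3 follows them more loosely (r = 0.74), and newborn 1 is the lowest point in both panels.

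The difference of GLUD1 between the age groups pointed in opposite directions on the 2 slides. On slide 1, GLUD1 probe 1 lay between 0.69 and 1.09 in the 4 fetal arrays and between 0.20 and 0.93 in the 3 newborn arrays, a difference of -0.37. The low end there was newborn 1 at 0.20, with newborn 3 at 0.62 and newborn 2 at 0.93. On slide 2 it lay between 0.56 and 0.70 in the 2 fetal arrays and between 0.56 and 0.82 in the 4 newborn arrays, a difference of 0.10. GLUD1 probe 2 gave -0.45 and 0.20, and GLUD1 probe 3 gave -0.15 and 0.14. Both slide 2 fetal arrays were below the mean of their group on all 3 probes.

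The gap between the slides was tested as a product of age and slide in limma, a test chosen after seeing the data. For GLUD1 probe 2 the slide 2 difference exceeded the slide 1 difference by 0.65 (SE 0.256, unadjusted p = 0.0255). After Benjamini-Hochberg adjustment over 10255 probes the p was 0.9996, so the gap did not pass. The gaps for GLUD1 probe 1 (0.47, SE 0.261) and GLUD1 probe 3 (0.29, SE 0.208) had the same adjusted p in limma. With 1 array left out the gap ranged from 0.28 to 0.65 for GLUD1 probe 1. It ranged from 0.44 to 0.76 for GLUD1 probe 2 and from 0.15 to 0.39 for GLUD1 probe 3. For BCKDHA the gap was -0.03 (SE 0.325), also with an adjusted p of 0.9996. No probe passed this test at an adjusted p under 0.05 in limma (0 of 10255), and 292 had an unadjusted p under 0.05.

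**Figure D3:**
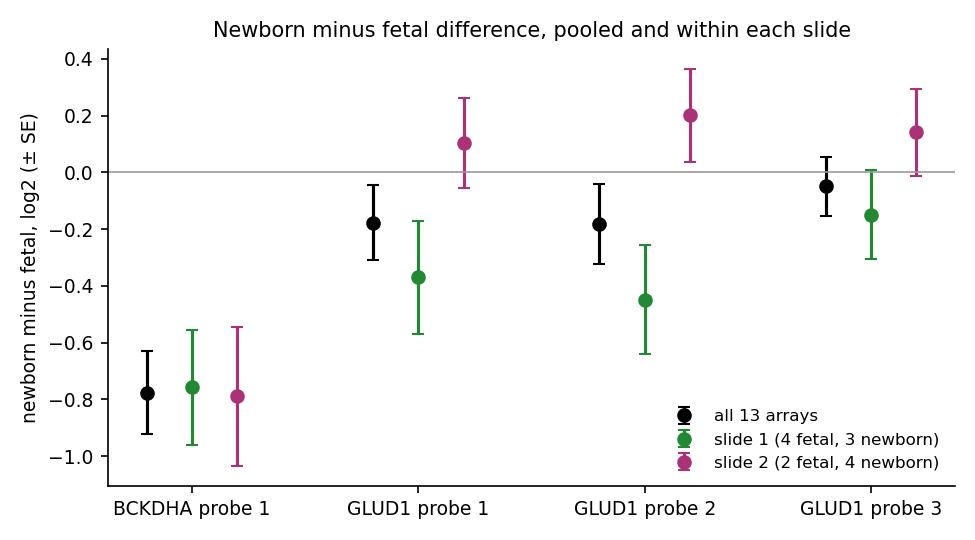
Newborn minus fetal difference (log2, with the SE of the limma fit) of each probe over all 13 arrays (black), within slide 1 (green) and within slide 2 (purple). BCKDHA probe 1 gives -0.78, -0.76 and -0.79, while the GLUD1 probes lie below 0 on slide 1 (-0.45 to -0.15) and above 0 on slide 2 (0.10 to 0.20).

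Contrasts that played no part in choosing the genes were then tested. Males and females were compared with the age group in the model. BCKDHA was 0.05 higher in males (SE 0.155), and GLUD1 probe 1, GLUD1 probe 2 and GLUD1 probe 3 were 0.12 (SE 0.137), 0.20 (SE 0.142) and 0.14 (SE 0.105) higher. None passed (adjusted p = 0.999 in limma for each). Over the array 1 of 10255 probes passed for sex (0.00975%), and 331 had an unadjusted p under 0.05. At these SEs, 0.105 to 0.155, a sex difference as small as the GLUD1 difference between age groups could not be told from 0.

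Whether the newborn minus fetal difference depended on sex was tested as the product of age and sex. The male difference minus the female difference was -0.03 (SE 0.324) for BCKDHA and 0.13 (SE 0.285) for GLUD1 probe 1. It was 0.08 (SE 0.296) for GLUD1 probe 2 and 0.09 (SE 0.218) for GLUD1 probe 3. The adjusted p in limma was 0.995 for BCKDHA and GLUD1 probe 2 and 0.991 for the other GLUD1 probes. No probe of the array passed (0 of 10255 in limma; the unadjusted p was under 0.05 for 507), and the fetal group held only 2 females. The slides themselves, slide 2 minus slide 1 with age in the model, differed by -0.02 (SE 0.155) for BCKDHA, and by -0.06, -0.07 and -0.11 for the GLUD1 probes in order. None of the 4 passed (adjusted p from 0.995 to 0.999 in limma), nor did any other probe (0 of 10255; the unadjusted p was under 0.05 for 533).

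No correlation of BCKDHA with GLUD1 among animals of a group was detected. With GLUD1 probe 1, Pearson's r was 0.41 in the 6 fetal arrays (exact permutation p = 0.393, two-sided) and -0.34 in the 7 newborn arrays (exact permutation p = 0.491). Spearman's rho was 0.43 (exact permutation p = 0.419) and -0.21 (exact permutation p = 0.662). Adjusted over these 4 tests the exact p-values were 0.654 to 0.662. The permutations took the animals as independent, although some in each group share a number. Without the 2 arrays farthest from the median of BCKDHA, r was 0.16 in 4 fetal arrays and 0.35 in 5 newborn arrays. The sign in newborns rested on newborn 1, which had a high BCKDHA and the lowest GLUD1 of its group. With slide means subtracted r was 0.60 in fetuses and -0.34 in newborns (exact permutation p = 0.333 and 0.424).

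**Figure D4:**
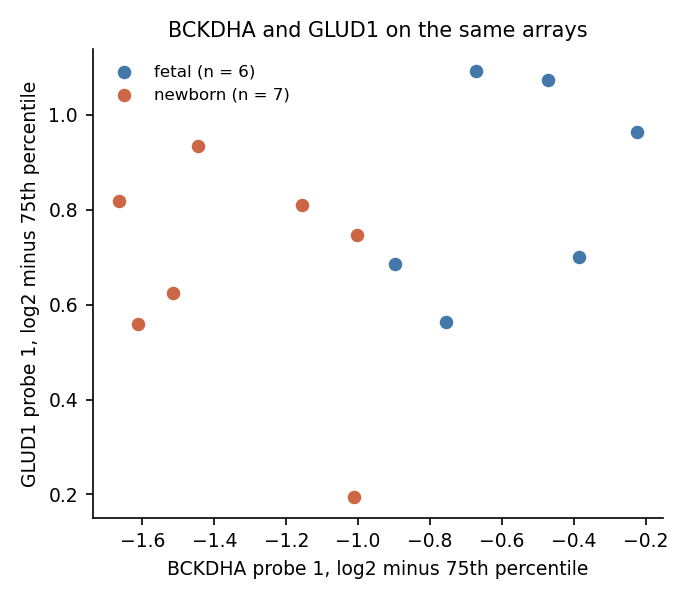
Level of GLUD1 probe 1 (vertical axis) against BCKDHA probe 1 (horizontal axis) on the same arrays, both as log2 minus the array's 75th percentile, for 6 fetal and 7 newborn animals. The groups separate along BCKDHA but not along GLUD1, and within groups r is 0.41 in fetuses and -0.34 in newborns.

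Genes whose levels varied most like those of each member were taken from the 546 other named genes tested on every array. The measure was Pearson's r over the 13 arrays after each group's mean was subtracted, given as a description, since every gene shares the arrays and their scaling. Nearest to BCKDHA were PLIN2, a coat protein of lipid droplets (r = 0.87), CYTH2, an exchange factor for ARF proteins (r = 0.82), and PYGB, the brain form of glycogen phosphorylase (r = 0.81). Most opposed were the splicing factor SRSF3 (r = -0.86) and PANK2, a pantothenate kinase of coenzyme A synthesis (r = -0.80). For 90% of the genes r with BCKDHA lay between -0.61 and 0.56. Nearest to GLUD1 probe 1 were SLC39A13, a zinc transporter (r = 0.73), the lipopolysaccharide receptor TLR4 (r = 0.72) and a gene the files call K38 (r = 0.71). Most opposed were RABL2B, a small GTPase (r = -0.82), and LOC100037663 (r = -0.76), and for 90% of the genes r lay between -0.42 and 0.50. BCKDHA and GLUD1 stood near the middle of each other's order, with r = -0.04.

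Few other genes of these pathways could be followed, because most probes of the array could not be named. Of the partners of BCKDHA in its complex, its kinase and its phosphatase (5 genes listed), none had a named probe. Nor had any of the 22 genes of the later steps of branched-chain amino acid breakdown, or of the 14 related dehydrogenase subunits and regulators. Of 7 genes of branched-chain transport and first steps, 3 had a named probe and 2 were tested. BCAT2, the mitochondrial transaminase, ran from -0.85 to -0.22 in fetuses and from -1.05 to -0.42 in newborns on its brightest probe. Its difference was -0.07 (SE 0.129, adjusted p = 0.705 in limma), and that of its other probe -0.31 (SE 0.145, adjusted p = 0.136 in limma). BCAT1, the cytosolic transaminase, was dim. On its tested probe more than 2 of the 5 spots were well above background on 8 of 13 arrays. The difference on that probe was 0.16 (SE 0.177, adjusted p = 0.528 in limma). Its other probe was well above background on 0 of 13 arrays and was not tested. SLC7A5, a plasma membrane carrier of large neutral amino acids, was well above background on 1 array and was not tested.

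Around GLUD1, 5 of 33 listed glutamate and glutamine genes had a named probe and 1 was tested. This was SLC25A11, the mitochondrial carrier that exchanges alpha-ketoglutarate for malate. It ran from 1.75 to 2.06 in fetuses and from 1.72 to 1.96 in newborns, with a difference of 0.01 (SE 0.0823, adjusted p = 0.924 in limma), and scaling by the median or quantiles turned its sign. The plasma membrane glutamate carriers SLC1A1, SLC1A2 and SLC1A3 were well above background on 0 or 1 of 13 arrays. SIRT4, a mitochondrial enzyme known to restrain glutamate dehydrogenase, was well above background on 4 arrays and was not tested.

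Over all the pathway lists, without BCKDHA and GLUD1, 15 of 162 genes were tested. Of these 1 rose and 1 fell at an adjusted p under 0.05 in limma, or 2 of 15, where 131 of 555 tested named genes passed (23.6%). Their median difference was 0.14, and that of all 555 named genes 0.10. IDH1, the cytosolic isocitrate dehydrogenase that makes alpha-ketoglutarate, rose by 0.96 (SE 0.261, adjusted p = 0.0177 in limma). Its level ran from 2.13 to 3.997 in fetuses and from 3.24 to 4.38 in newborns, so the groups overlapped, with 3 newborn arrays above every fetal one. CEBPB, a transcription factor of liver and immune genes, fell by 0.53 (SE 0.136, adjusted p = 0.0132 in limma), from -3.40 to -2.76 in fetuses to between -3.89 and -3.24 in newborns. With normexp background correction neither passed, with 0.95 for IDH1 (adjusted p = 0.0860 in limma) and a smaller -0.19 for CEBPB (adjusted p = 0.9998 in limma). CEBPB also did not pass with normexp on the median background of each array (-0.10, adjusted p = 0.345 in limma). Within slide 1 and slide 2, with fewer arrays, neither passed, at sizes of 0.95 and 0.86 for IDH1 and -0.60 and -0.51 for CEBPB.

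**Figure D5:**
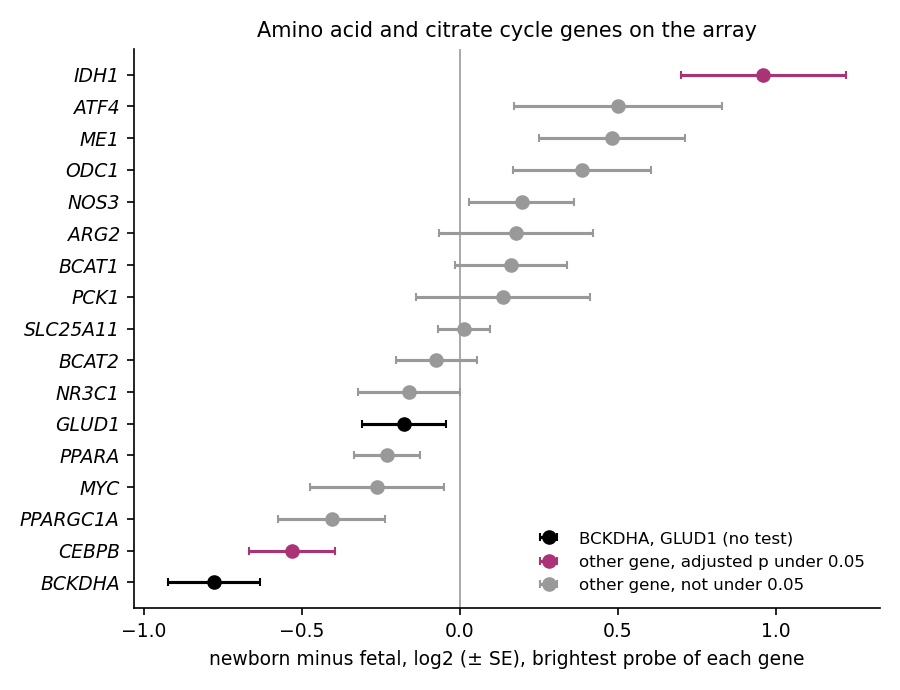
Newborn minus fetal difference (log2, with the SE of the limma fit) of the brightest probe of BCKDHA, GLUD1 and the 15 other tested genes of the pathway lists. BCKDHA lies lowest (-0.78) and IDH1 highest (0.96), and of the other genes only IDH1 and CEBPB had an adjusted p under 0.05. Since BCKDHA was chosen for this contrast, nothing is read from its place in the order.

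The 3 tested genes of the list for breakdown of other amino acids and the urea cycle gave no call, with a median difference of 0.20. Of 6 tested transcription factors CEBPB alone passed on its brightest probe. PPARGC1A, a coactivator of mitochondrial genes, differed by -0.41 on its brightest probe (SE 0.169, adjusted p = 0.0942 in limma) and by -0.40 and -0.34 on the others. The probe at -0.40 passed (adjusted p = 0.0378 in limma), so its probes disagreed on the call but not on the direction.

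A piece of ventricle holds several cell types, and in such bulk tissue fewer cells of a type cannot be told apart from less RNA per cell. Markers of other cell types also differed between the age groups, some lower and some higher in newborns. For scale, 23.6% of the tested named genes (131 of 555) passed at an adjusted p under 0.05 in limma. Red cell markers fell for 2 of 2 tested genes (HBB -1.53, AHSP -1.73), and their summed linear level, in units of the 75th percentile, ran from 53.7 to 258 in fetuses and from 25.4 to 68.6 in newborns. Lymphocyte markers fell for 2 of 3 (CD3E -2.07, CD3D -1.63, summed 0.252 to 0.707 against 0.0871 to 0.224). Some of these were dim, and AHSP and CD3D were each well above background on 5 of 6 fetal and 2 of 7 newborn arrays. Endothelial markers fell for 2 of 3 (PECAM1 -0.51, KDR -0.46, summed 5.63 to 7.20 against 3.91 to 6.49). A dimmer KDR probe did not pass (-0.33, adjusted p = 0.0670 in limma).

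Macrophage and monocyte markers rose for 3 of 5 (FCGR1A by 2.07, FCER1G by 0.76, summed 0.783 to 1.17 against 1.15 to 2.44), where FCGR1A was well above background on 2 of 6 fetal and 7 of 7 newborn arrays. Smooth muscle markers rose for 1 of 2, CNN1 by 1.83, with a summed level of 7.14 to 10.6 in fetuses and 12.9 to 87.8 in newborns. Fibroblast markers fell for 1 of 3, COL3A1 (-0.37, adjusted p = 0.0469 in limma), with summed levels of 43.7 to 64.8 and 28.6 to 74.8 that overlapped. The other COL3A1 probes did not pass (-0.28 and -0.19, adjusted p = 0.143 and 0.374 in limma). Skeletal muscle markers rose for 1 of 2, MYOD1 by 0.43 (adjusted p = 0.0477 in limma), while its dimmer probe did not pass (adjusted p = 0.111 in limma). The other marker, TNNC2, differed by 1.11 (SE 1.27, adjusted p = 0.551 in limma). TNNC2 varied widely between arrays, from -0.72 to 3.84 in fetuses and from -0.46 to 5.30 in newborns. It was far brighter than MYOD1, so the summed level, 0.681 to 14.4 against 0.883 to 39.4, was mostly TNNC2. Fat cell markers rose for 0 of 2, summed 0.421 to 0.725 against 0.489 to 0.623. No neutrophil marker was tested. MB, the 1 tested gene of the heart muscle list, differed by -0.34 (SE 0.164, adjusted p = 0.139 in limma). The part of these cell types in the difference of BCKDHA was not tested.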

How the data were processed

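Spot intensity values in the deposited array files come from Agilent Feature Extraction 10.1.1.1, per the file headers, with background subtracted and no normalization between arrays. The files hold 1 green channel, and the labels name Cy3 in the protocol and Cy5 in the label field. From its values, the series matrix deposited by the authors gives log2 signals of 7041 probes. Each column has a median of 8.69 to 8.70 and correlates best with its own array (r = 0.986 to 0.992), while its normalization stays unknown, and it served only as an alternative.

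Control and outlier-marked spots were left out, and the test took the 10255 of 15008 probes that were well above background on 6 arrays or more. Through the RefSeq gene table of assembly ARS-UI_Ramb_v3.0, 1372 probes (9.14%) received 1 gene name. Where a gene had several probes, its brightest stood for it. The fits used limma 3.58.1 (lmFit, eBayes) under R 4.3.3, and two-sided p-values were adjusted by Benjamini-Hochberg across every tested probe, taking the animals as independent. Precision is limited by how many arrays there are. Figures and exact tests used Python 3.11.15, scipy 1.17.1 and matplotlib 3.10.9. The fits were also tested on simulated data with independent noise, which held no effect of slide or of shared animal number.

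The members, the gene lists, the tests and the rule for naming genes were chosen with earlier results of these data known. The rule names BCKDHA, GLUD1, every tested gene of the branched-chain and glutamate lists, and the genes of the other pathway lists that passed. It also names heart muscle markers, at most 2 examples of other marker lists, and the 3 nearest and 2 most opposed genes by r. PPARGC1A, SLC7A5, SIRT4 and the SLC1A genes were named after their values were seen. Alternatives were normexp with an offset of 50, quantile or median scaling, the series matrix, no or a stricter filter on dim probes, terms for slide, sex, animal number or replicate number, each slide alone, trended and robust eBayes, the mean of a gene's probes, and each array left out. The product of age and slide, and normexp with the median background of each array, were added after seeing the data. Neither protein, promoter nor genome sequence was used here.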

Additional observations from a re-analysis of the deposited data

Results flagged for a closer look

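In 20 sets of values (10 genes or probes in 2 groups) a single array was looked for that lay farther from the rest than Dixon's ratio allows for its group size. Chance flags about 1 in 20 such sets, and 3 were found. GLUD1 probe 2 was low on newborn 1, with 0.0989 against 0.58 to 0.86 on the other newborn arrays. BCAT2 was high on fetal 2, with -0.217 against -0.85 to -0.76 on the other fetal arrays. SLC25A11 was also high on fetal 2, with 2.06 against 1.75 to 1.84 on the others. The BCKDHA probe had no such array in either group, and no member passed the test of age by sex.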

How the results depend on the processing

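The BCKDHA difference lay between -0.84 and -0.44 over the 28 alternatives and moved by more than the SD within groups (0.268) only with the series matrix (-0.44). With normexp background correction (offset 50) it was also smaller in size, at -0.53 (SE 0.175), a shift just under that SD. Its direction could not change where arrays were left out, since the groups do not overlap. The count of probes passing for age was 48 with normexp background correction (offset 50), 356 within slide 1 and 23 within slide 2, and from 1727 to 3116 with 1 array left out. With animal number as a random block (fitted correlation 0.178 between animals sharing a number) it was 1717, against 2366 in the main fit, which took the animals as independent. Of the 15 other pathway genes 0 passed with normexp, 1 (IDH1) with normexp on array-wide background and 0 within slide 2. Within slide 1 the 1 that passed was another gene, ME1 (0.76, adjusted p = 0.0472 in limma), named after its values were seen. Without newborn 6, 3 passed, with ME1 (0.68, adjusted p = 0.00248 in limma) beside IDH1 and CEBPB. With the series matrix 1 of 12 passed, IDH1, and CEBPB has no value there. Each slide alone has fewer arrays, and the cause of the normexp counts was not tested.

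GLUD1 turned sign within slide 2 (0.10, 0.20 and 0.14 for probes 1 to 3), as did BCAT2 (0.14). GLUD1 probe 3 was 0.018 with normexp on array-wide background, and BCAT1 was -0.054 with normexp. SLC25A11, near 0 throughout, was -0.016 with quantiles, -0.0021 with the median, -0.11 within slide 1 and -0.0060 with sex added. With 1 array left out it ranged from -0.0065 to 0.056, and BCAT2 from -0.14 to 0.024. The fetal correlation of BCKDHA with GLUD1 was -0.24 with normexp, and the newborn one ranged from -0.50 to 0.23 with 1 array left out.

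Effects of sex and slide that did not pass also changed sign, and none passed under any alternative. For sex, BCKDHA was -0.092 and GLUD1 probe 3 -0.22 with normexp. With 1 array left out BCKDHA ranged from -0.024 to 0.12. For age by sex, BCKDHA was 0.0052 with normexp and 0.014 with animal number as a random block, and GLUD1 probe 3 was -0.064 with normexp on array-wide background. With 1 array left out the ranges were -0.19 to 0.11 for BCKDHA and -0.13 to 0.39, -0.21 to 0.37 and -0.043 to 0.22 for the GLUD1 probes. For slide, BCKDHA was 0.016 with normexp, 0.035 with the series matrix and 0.028 with normexp on array-wide background, and ranged from -0.084 to 0.058 with 1 array left out (GLUD1 probe 1 from -0.18 to 0.021, probe 2 from -0.22 to 0.037). For age by slide, BCKDHA was 0.023 with the series matrix and 0.081 with normexp on array-wide background, and ranged from -0.22 to 0.15 with 1 array left out, while GLUD1 probe 3 was -0.69 with normexp.

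The labels number the animals of both groups from 1. Same-numbered arrays did not deviate together (correlations of their deviations from -0.07 to 0.05 over 10139 probes, and 1 of 6 pairs best with its own number). By the same measure, arrays sharing an animal number gave -0.17 to 0.19. With so few arrays this check cannot show whether the replicate numbers mark pairs. With the replicate block, which drops newborn 7, BCKDHA was -0.73 and 1326 probes passed for age. In the same block fit the sex effect of BCKDHA was -0.015, and age by sex moved from -0.03 to -1.35 for BCKDHA (SE 0.877, adjusted p = 0.627 in limma) and was -0.48, -0.56 and -0.23 for the GLUD1 probes.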
